A study of Mus musculus with 9 samples.

Results

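The 46 genes described here belong to the interferon response and to class I antigen presentation, and were chosen by name. They fall into 7 roles: sensors of foreign nucleic acid, transcription factors, antiviral effectors, interferon-inducible GTPases, the class I antigen presentation machinery, ubiquitin ligases and PARPs, and chemokines. Ensembl identifiers in the deposited tables were paired with mouse symbols, and 45 of the 46 genes were found among the 41388 genes of each table. Gbp6, a guanylate-binding protein, matched no identifier and was not analysed here. All 45 genes passed the filter on low counts.

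Liver RNA came from male C57BL/6J mice of 3 genotypes, sequenced as 9 libraries. Controls carried Mttp alleles flanked by loxP sites and no deletion (Mttp f/f, called control). MttpLKO mice lacked Mttp in the liver, and DKO mice lacked Mttp in the liver and Fabp1 in the whole body. Mttp encodes the transfer protein that loads triglyceride onto nascent lipoproteins, and Fabp1 the main cytosolic fatty acid binding protein of the hepatocyte. Every mouse, controls included, had received the liver carcinogen diethylnitrosamine (DEN) at 25 mg per kg by intraperitoneal injection at 14 days of age, ate chow and had its liver collected at 6 months. There was no group without DEN and no group lacking only Fabp1. The promoter that drove Cre is not given in the sources used here, nor is whether tumour or non-tumour tissue was taken. Each library was a pool of RNA from 3 mice, with 3 pools per genotype and 27 mice in all. Tests therefore measure the spread between pools and not between single mice.

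Interferons are secreted cytokines that alert cells to infection and damage. Type I interferons act through the receptor subunits Ifnar1 and Ifnar2 and the kinases Jak1 and Tyk2, and assemble a complex with Stat2 and Irf9 that binds the interferon-stimulated response element (ISRE) upstream of target genes. Interferon gamma acts through Ifngr1 and Ifngr2, and its target genes often carry the gamma-activated site (GAS). Hepatocytes respond to both kinds, and the class I machinery that shows peptides to CD8+ T cells is among the targets of both.

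The depth was 24995426 to 27080442 counts per library in control, 26362408 to 27918197 in MttpLKO and 23268389 to 23429588 in DKO. Levels below are CPM, the share of a library's counts that fall on a gene, on library sizes scaled by TMM, unless RPKM (read counts scaled to gene length and library total) is named. Mttp lay at 69.4 to 181 CPM in control, 6.14 to 9.78 in MttpLKO and 3.24 to 5.79 in DKO. Fabp1 lay at 6060 to 6845, 3379 to 4984 and 50.3 to 78 CPM. The deleted genes thus followed the labels in all 9 libraries. The summed level of 6 hepatocyte markers was 56028 to 98153 CPM across the libraries. MttpLKO replicate 3 stood apart from the rest: its score on the first principal component of all genes was 53.7, where the other 8 libraries lay between -17.4 and 9.62. DKO replicate 3 stood apart on the second component, at -42 against -22.1 to 23.7 for the other 8, and had the highest share of counts on the mitochondrial chromosome, 7.96% against 5.61% to 7.2%. Values without a pool are given beside the main results it moved.

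The promoters of these genes often held the core letters of the ISRE. The genes were chosen by name as interferon response and antigen presentation genes, so a high share describes that choice and is not a result of these data. A RefSeq promoter window (build GRCm38.p6, 250 bases before to 50 bases after the transcription start) was at hand for 36 of the 45 genes. The ISRE core was searched as GAAANNGAAA and, on the other strand, as TTTCNNTTTC, and it stood in the windows of 19 of 36 genes (52.8%), against 3.99% of all 27025 genes with a window. The GAS core was searched as TTCNNNGAA, which reads the same on both strands, and stood in 11 of 36 genes (30.6%), against 9.55% of all genes. Both cores were present in 6 of the genes, and in 1 of these an ISRE core and a GAS core shared bases. A match describes letters in a window and does not show binding. Only exact letters were searched, so a gene without a match may still hold a variant of the element.

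The last 160 bases before the RefSeq start are printed for some of the genes that differed below (Gbp3, Ifit3, Ifit1, Rsad2). Isg15 is printed as an example of overlapping cores and B2m as the most abundant of the genes. Irf7 is printed as a gene whose window held no ISRE core. Its levels do not set it apart: as given below, Irf7 too lay below all controls in every library without Mttp. H2-K1, also without a core, lay below control in every MttpLKO pool. Each runs 5′ to 3′ on the strand of its gene, and capitals mark ISRE cores on either strand.
Gbp3 (chr3:142559884-142560043, plus strand): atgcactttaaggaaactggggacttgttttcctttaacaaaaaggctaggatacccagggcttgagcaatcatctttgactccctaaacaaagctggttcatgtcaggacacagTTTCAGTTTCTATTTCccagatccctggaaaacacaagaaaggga
Ifit3 (chr19:34583369-34583528, plus strand): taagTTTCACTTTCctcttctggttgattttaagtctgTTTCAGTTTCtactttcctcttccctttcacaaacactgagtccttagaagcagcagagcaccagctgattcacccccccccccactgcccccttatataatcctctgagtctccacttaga
Ifit1 (chr19:34640729-34640888, plus strand): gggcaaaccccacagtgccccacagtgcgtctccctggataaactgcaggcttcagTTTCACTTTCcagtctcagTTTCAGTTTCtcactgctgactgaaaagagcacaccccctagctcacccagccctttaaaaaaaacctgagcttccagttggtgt
Rsad2 (chr12:26456453-26456612, minus strand): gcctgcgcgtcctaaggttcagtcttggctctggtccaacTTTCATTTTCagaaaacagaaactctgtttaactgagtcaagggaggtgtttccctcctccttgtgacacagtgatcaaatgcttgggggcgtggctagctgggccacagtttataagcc
Isg15 (chr4:156200819-156200978, minus strand): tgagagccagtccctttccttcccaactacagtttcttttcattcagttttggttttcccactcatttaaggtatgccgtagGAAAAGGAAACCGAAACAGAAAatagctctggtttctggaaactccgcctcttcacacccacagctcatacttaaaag
B2m (chr2:122147527-122147686, plus strand): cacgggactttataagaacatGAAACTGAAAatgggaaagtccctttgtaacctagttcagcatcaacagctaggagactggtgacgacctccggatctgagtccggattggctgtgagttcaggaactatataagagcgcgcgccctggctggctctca
Irf7 (chr7:141266425-141266584, minus strand): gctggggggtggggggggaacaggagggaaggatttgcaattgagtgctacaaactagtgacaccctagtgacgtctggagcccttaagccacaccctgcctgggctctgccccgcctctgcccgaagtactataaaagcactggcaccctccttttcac

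Gbp3, Ifit3 and Ifit1 each held 2 ISRE cores in this stretch, Isg15 held 3 that share bases, and Rsad2 and B2m held 1. In Gbp3 the last bases of the first core are also the first bases of the second. The genes were also split by the presence of an ISRE core for the genotype comparisons described below. The median log2 fold change of MttpLKO against control was -0.20 over the 19 genes with a core and -0.14 over the 17 without, and in DKO against control it was again -0.20 and -0.14. In DKO against MttpLKO the medians were -0.05 with a core (10 of 19 below 0) and 0.03 without (5 of 17 below 0). This split has no test.

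Levels between genes, compared per length as mean RPKM over the 9 libraries, spanned almost 4 orders of magnitude. B2m, the invariant light chain of class I molecules, stood at 2788 RPKM and ranked 25 among all genes. H2-K1 and H2-D1, the classical class I heavy chains of this strain, stood at 590 and 204 RPKM. Bst2, the membrane protein tetherin that holds budding virions at the cell surface, stood at 286. These 4 genes were above 100 RPKM, 10 lay between 10 and 100, 25 between 1 and 10, and 6 below 1. Ifi27, a small interferon-induced membrane protein, reached 78.8 RPKM and Iigp1, a GTPase that attacks the vacuoles of intracellular parasites, 45.4. At the bottom lay Cmpk2 (0.646 RPKM), a mitochondrial nucleotide kinase, Mx1 (0.399), an antiviral GTPase that is defective in most laboratory strains, Ifit2 (0.318) and Ifi44 (0.30).

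**Figure D1:**
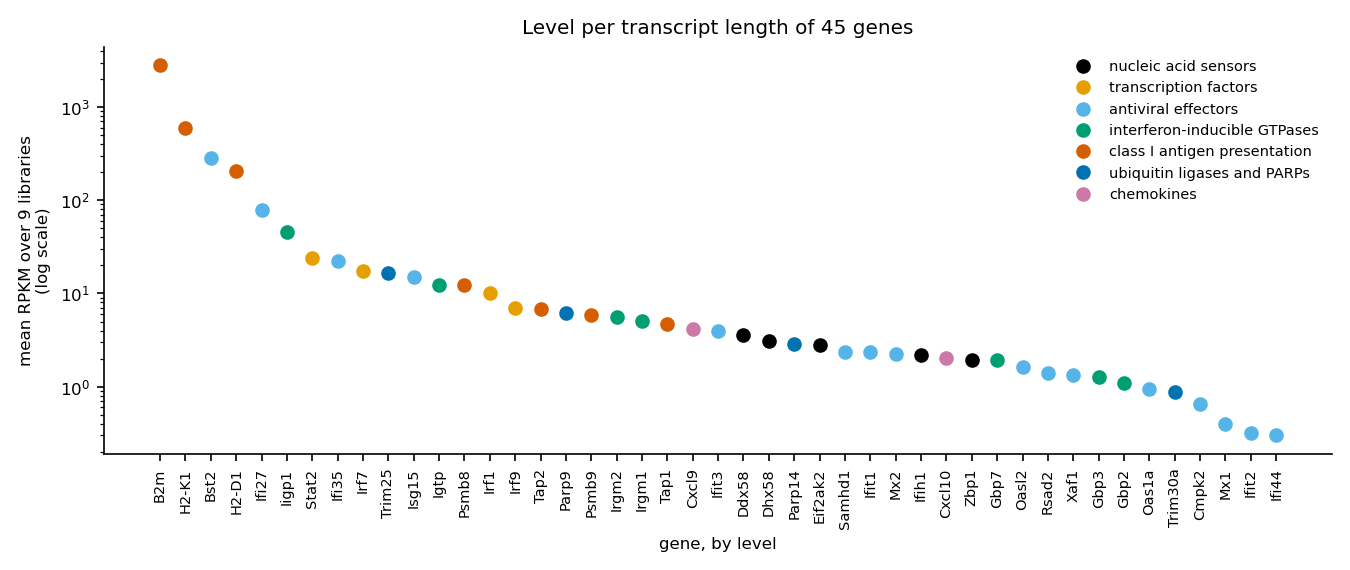
Mean RPKM over 9 libraries on a log scale (vertical axis) for 45 genes in order of level (horizontal axis), coloured by role. The class I genes B2m (2788 RPKM), H2-K1 (590) and H2-D1 (204) and the effector Bst2 (286) lie above the other genes, and Ifi44 (0.30) is lowest.

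The abundant class I genes were among the most even between pools. The pooled SD of log2 CPM within a genotype was 0.093 for H2-K1, 0.097 for B2m and 0.098 for Trim25, an E3 ligase of the RIG-I pathway. It was largest for Cxcl9 (0.784), Cxcl10 (0.658) and Ifit2 (0.65). The median over the 45 genes was 0.257, against 0.228 over all 14741 genes tested.

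Read library by library, the control pools held most of the highest values. Of the 45 genes, 24 had their highest level in a control library, 11 in an MttpLKO library and 10 in a DKO library. Over all genes tested, 24% were highest in a control library, 38.1% in an MttpLKO library and 37.9% in a DKO library. The lowest level fell in a control library for 2 genes, in MttpLKO for 20 and in DKO for 23, against 23.1%, 33.8% and 43.1% of all genes tested. These were uneven within genotypes: MttpLKO replicate 2 held the lowest value of 12 genes and the highest of none, DKO replicate 3 held the lowest value of 13, and MttpLKO replicate 3 held the highest value of 10. The 10 were Cxcl9, Cxcl10, Gbp2, Gbp7, Igtp, Ifi44, Samhd1, Stat2, Trim25 and Trim30a.

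**Figure D2:**
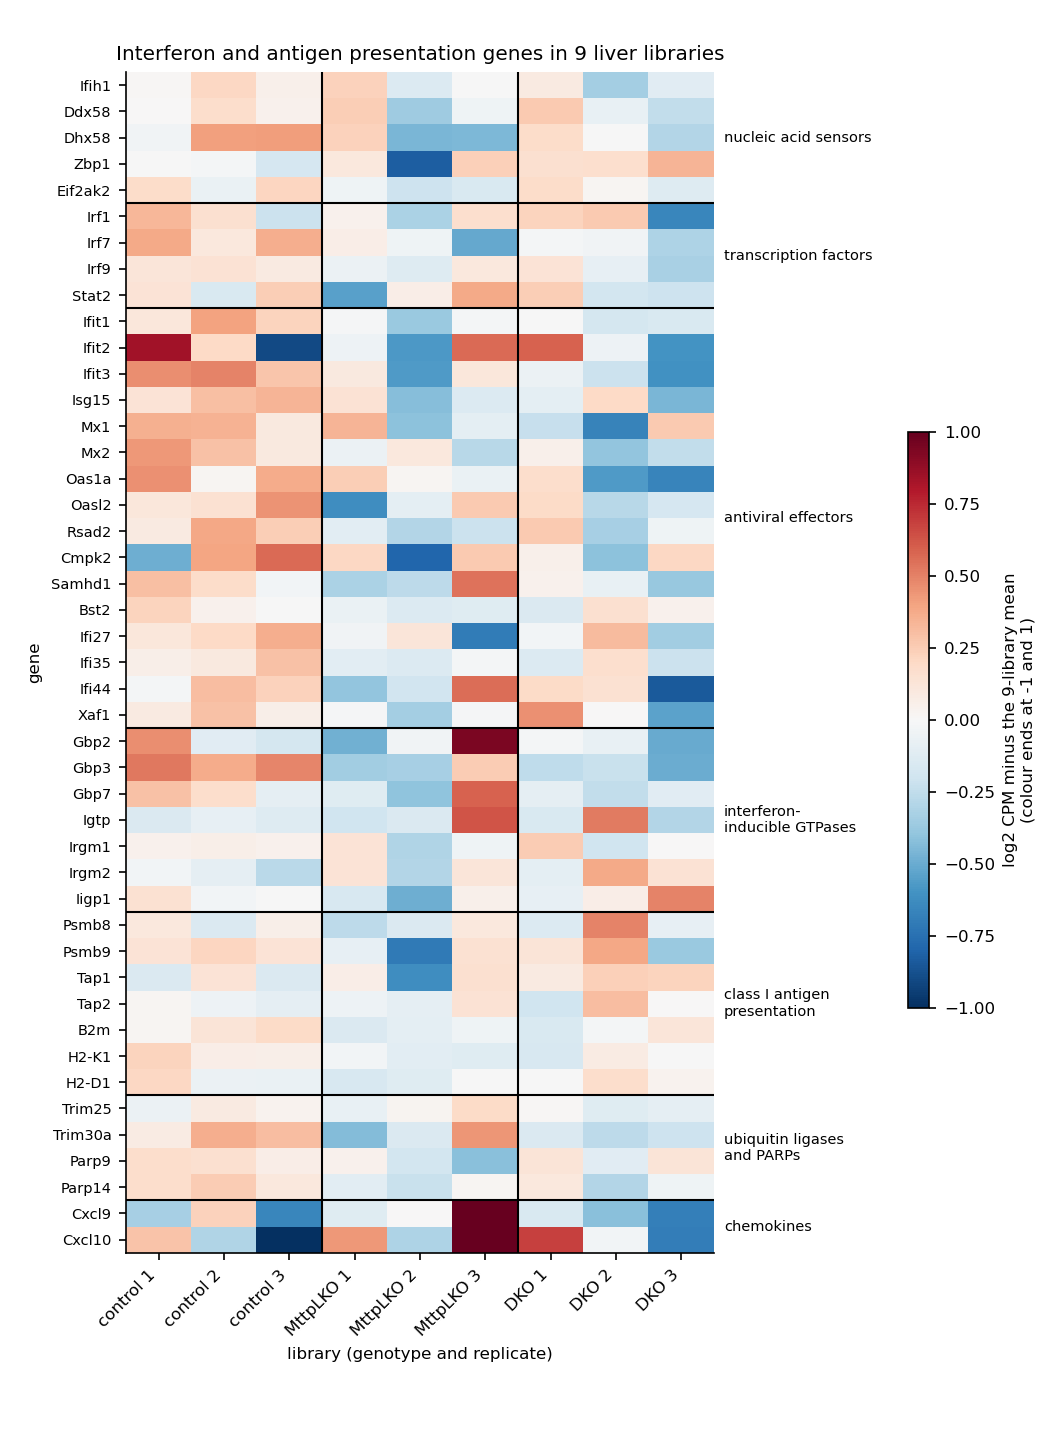
Log2 CPM of 45 genes (rows, grouped by role) in 9 libraries (columns), each gene centred on its mean over the libraries; colour ends at -1 and 1. Control columns are mostly red, MttpLKO replicate 2 and DKO replicate 3 mostly blue, and the chemokines are far above their mean in MttpLKO replicate 3.

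The first comparison asked what loss of liver Mttp did to these genes. None of the 45 genes passed the test in MttpLKO against control (edgeR quasi-likelihood F test, Benjamini-Hochberg adjusted p under 0.05), where 0.346% of the 14741 genes tested did. The smallest adjusted p among them was 0.524. DESeq2 and limma-voom also called none. At an unadjusted p under 0.05, 7 genes were lower and 1 was higher, against 2.94% and 4.04% of all genes. The estimates nonetheless leaned one way: 38 of 45 log2 fold changes were below 0, against 47.7% of all genes tested, and their median was -0.20, against 0.01 over all genes. In 12 genes all 3 MttpLKO libraries lay below all 3 controls, as in 6.99% of all genes tested (called the background below), and in none above (background 7.27%). The 12 were Irf7, Ifit1, Ifit3, Rsad2, Bst2, Ifi35, Xaf1, Gbp3, B2m, H2-K1, Parp9 and Parp14.

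The size of this lean depended on single MttpLKO pools. Without MttpLKO replicate 2, 29 genes were below 0 and the median was -0.112. Without MttpLKO replicate 3, 42 were below 0 and the median was -0.262. With 1 library fewer, 14 to 21 genes did not overlap on the lower side, where 9.85% to 15.1% of all genes did the same. The count reached 20 without MttpLKO replicate 1 and 21 without replicate 3, where the shares of all genes were 15.1% and 14.3%. All the genes were read in the same pools, so their estimates are not independent. With each gene centred on its mean log2 CPM, the median over the genes was also taken per library. It was 0.12, 0.161 and 0.07 in control replicates 1 to 3 and -0.058, -0.212 and 0.104 in MttpLKO. MttpLKO replicate 3 lay above control replicate 3, so the groups overlapped. The pooled SD of this library median within a genotype was 0.118.

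The antiviral effectors leaned lowest. All 16 had an estimate below 0 in MttpLKO, with a median of -0.28 and a range from -0.50 to -0.11, and 6 of the 16 did not overlap with control. Their summed level was 491 to 508 CPM in control and 397 to 427 CPM in MttpLKO, so the summed ranges were separate. Bst2 and Ifi27 made up most of this sum. Without MttpLKO replicate 2, 13 of the 16 were below 0, with a median of -0.21. None of the 16 passed the test.

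Ifit1 binds viral RNA that lacks the methylated cap of the host, and Ifit3 belongs to the same family. Ifit3 (chr19:34583531-34588731) stood at 9.14, 9.37 and 8.03 CPM in control replicates 1 to 3, at 7.1, 4.48 and 7.15 in MttpLKO and at 6.35, 5.71 and 4.35 in DKO. All 6 libraries without Mttp lay below all 3 controls. The log2 fold change of MttpLKO against control was -0.50 ± 0.207 (SE; edgeR adjusted p = 0.655), and -0.311 without MttpLKO replicate 2.

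Ifit1 (chr19:34640871-34650009) lies beside it on chromosome 19. It read 6.63, 8.09 and 7.16 CPM in control, 6.07, 4.74 and 6.04 in MttpLKO and 6.11, 5.41 and 5.51 in DKO, again with no overlap between control and either other genotype. Its log2 fold change in MttpLKO was -0.38 ± 0.159 (SE; edgeR adjusted p = 0.664). Reads of Ifit3 and of its near-identical neighbour Ifit3b may be shared, so single values of these genes are uncertain.

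Rsad2 encodes viperin, a radical SAM enzyme that makes a chain-terminating nucleotide. Its levels were 6.31, 7.79 and 7.05 CPM in control, 5.54, 4.85 and 5.12 in MttpLKO and 7.11, 4.73 and 5.78 in DKO. The MttpLKO pools lay below the controls and the DKO pools overlapped both. The log2 fold change in MttpLKO was -0.45 ± 0.178 (SE; edgeR adjusted p = 0.63). Isg15, the ubiquitin-like modifier, read 12.2, 13.7 and 14.1 CPM in control, 12.3, 8.27 and 10.1 in MttpLKO and 10.4, 12.8 and 8.11 in DKO, with the ranges overlapping.

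Bst2, the most abundant effector, read 254, 225 and 218 CPM in control, 208, 199 and 201 in MttpLKO, and 197, 244 and 225 in DKO. Its MttpLKO pools all lay below all controls, and its DKO pools overlapped control. Ifi35 read 39.7, 40.7 and 46.6 CPM in control, 35.5, 34.6 and 37.5 in MttpLKO and 34.7, 42.9 and 32.8 in DKO. Xaf1, a pro-apoptotic antagonist of XIAP, read 6.51, 7.49 and 6.37 CPM in control, 6.04, 4.81 and 6.04 in MttpLKO and 8.36, 6.13 and 4.21 in DKO. Both lay below control in every MttpLKO pool and overlapped control in DKO. Ifi27 was lowest of all 9 libraries in MttpLKO replicate 3, at 69.5 CPM. It read 110 and 123 in the other MttpLKO pools and 122, 130 and 145 in control, so the groups overlapped.

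The remaining effectors also overlapped between control and MttpLKO. Mx2, a GTPase of the antiviral Mx family, read 10.7, 9.71 and 8.5 CPM in control and 7.6, 8.53 and 6.56 in MttpLKO. Oas1a and Oasl2, of the family that senses double-stranded RNA and arms RNase L, lay at 1.73 to 2.34 and 6.67 to 8.39 CPM in control and at 1.63 to 2.02 and 4.01 to 7.38 in MttpLKO. Oas1a has near-identical neighbours, so its values are uncertain too. Samhd1, which degrades deoxynucleotides, was highest in MttpLKO replicate 3 (30.7 CPM) and lay at 16.9 and 17.6 in the other 2 pools. Cmpk2, Mx1, Ifit2 and Ifi44 stayed under 3 CPM in all libraries.

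Among the transcription factors, Irf7, the amplifier of type I interferon synthesis, was the one without overlap. Irf7 (chr7:141262706-141266481) stood at 66.3, 55.1 and 65.7 CPM in control, 53.6, 49.5 and 35.9 in MttpLKO and 50.5, 49.8 and 41.2 in DKO. All 6 libraries without Mttp lay below all 3 controls. The log2 fold change in MttpLKO was -0.43 ± 0.153 (SE; edgeR adjusted p = 0.551). It was -0.28 when the third MttpLKO pool was left out.

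The other factors were close to level. Irf9, the DNA-binding subunit of the type I complex, read 40.4, 41 and 39.5 CPM in control, 35.7, 34 and 39.9 in MttpLKO and 40.8, 35.2 and 29.7 in DKO. Stat2 ranged from 92.8 to 122 CPM in control and from 70.8 to 134 in MttpLKO, and Irf1, a factor induced by interferon gamma, from 33.9 to 49.6 and from 31.6 to 44.3. All 4 factors had an estimate below 0, with a median of -0.14.

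The 5 sensors also had estimates below 0, with a median of -0.11 and no gene without overlap. Dhx58, the regulatory member of the RIG-I family, read 9.54, 13 and 13.1 CPM in control and 11.5, 7.13 and 7.19 in MttpLKO, a log2 fold change of -0.47 ± 0.215 (SE; edgeR adjusted p = 0.73). Ddx58, which encodes RIG-I itself, read 24.9, 28.1 and 25.6 CPM in control and 29.5, 19.5 and 24.1 in MttpLKO. Ifih1, the sensor of long double-stranded RNA, and Eif2ak2, the kinase that halts translation when it binds such RNA, lay at 16.2 to 20.9 and 12.2 to 13.7 CPM in MttpLKO, against 18 to 20.6 and 13.5 to 16.4 in control.

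Among the GTPases, 4 of 7 had estimates below 0, with a median of -0.05. Without MttpLKO replicate 3, 6 of 7 were below 0, all but Irgm2, with a median of -0.33. Gbp3, a guanylate-binding protein that acts at pathogen vacuoles, was the exception within the role. Gbp3 (chr3:142560052-142573209) read 5.74, 5.15 and 5.57 CPM in control, 3.13, 3.16 and 4.74 in MttpLKO and 3.34, 3.41 and 2.82 in DKO. Its means were 5.49 ± 0.302, 3.68 ± 0.923 and 3.19 ± 0.319 (SD, n = 3 pools each), and no library without Mttp reached the controls. In MttpLKO it was 1.49-fold lower, a log2 fold change of -0.58 ± 0.201 (SE; edgeR adjusted p = 0.524). Gbp3 lies 4.42 Mb from Mttp on chromosome 3, between Gbp7 at 4.39 Mb and Gbp2 at 4.48 Mb. The Gbp genes are close in sequence, and reads may be split between them. Its neighbours did not share its separation: Gbp7 read 12.7, 11.7 and 9.77 CPM in control and 9.55, 7.87 and 15.6 in MttpLKO, and Gbp2 read 3.6, 2.41 and 2.31 against 1.87, 2.54 and 5.

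The immunity-related GTPases, which disrupt parasite vacuoles, stayed near control. Irgm1 read 30.2, 30.5 and 30.1 CPM in control and 32.2, 23.8 and 28.4 in MttpLKO. Igtp, at 21.9, 22.8 and 22.1 CPM in control, read 21, 21.9 and 37.3 in MttpLKO, and Irgm2 read 19.9, 19 and 16.8 against 22.3, 16.5 and 22. The Igtp and Irgm2 loci overlap on chromosome 11, so their reads may not be told apart. Iigp1 read 155, 137 and 139 CPM in control and 125, 99.7 and 145 in MttpLKO.

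The class I machinery showed small, even differences in B2m and H2-K1. B2m (chr2:122147686-122153083) read 2421, 2608 and 2729 CPM in control, 2165, 2233 and 2316 in MttpLKO and 2155, 2364 and 2602 in DKO. H2-K1 (chr17:33996017-34000333) read 1792, 1606 and 1600 CPM in control, 1503, 1425 and 1409 in MttpLKO and 1373, 1621 and 1527 in DKO. In both genes all MttpLKO pools lay below all controls, and DKO pools overlapped control. The log2 fold change of H2-K1 in MttpLKO was -0.20 ± 0.113 (SE; edgeR adjusted p = 0.823). Summed over the 7 class I genes, control libraries lay at 4826 to 4935 CPM and MttpLKO libraries at 4226 to 4364, again separate. Most of this sum was B2m, H2-K1 and H2-D1. H2-D1 read 605, 505 and 501 CPM in control and 471, 484 and 523 in MttpLKO, with overlap.

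The peptide supply genes of the class I pathway overlapped between genotypes. Psmb8 and Psmb9, catalytic subunits of the immunoproteasome, read 35.5, 29.8 and 34.4 CPM and 23, 24.2 and 23 CPM in control. In MttpLKO they read 27.6, 29.8 and 35.6, and 19.7, 12.8 and 23.2. Tap1 and Tap2 form the transporter that carries peptides into the endoplasmic reticulum, and lay at 22.9 to 27.9 and 24.3 to 26.2 CPM in control, and at 16.5 to 28.3 and 24.3 to 28.5 in MttpLKO. Psmb9 and Tap1 overlap on opposite strands, and reads from the shared part may count for either. Set per length against the constitutive subunit it replaces, Psmb8 stood at 31.1 ± 4.39 per 100 Psmb5 in control, 27.9 ± 5.78 in MttpLKO and 34.0 ± 1.48 in DKO (RPKM ratio, SD, n = 3 pools). Psmb9 stood at 5.67 ± 0.433, 4.66 ± 1.54 and 5.67 ± 1.14 per 100 Psmb6, and Psmb10 at 46.3 ± 5.14, 41.4 ± 7.61 and 36.0 ± 5.93 per 100 Psmb7. For all 3 ratios the means of control and MttpLKO differed by less than the larger of their SDs. The Psmb10 ratio of the DKO pools, 30.2 to 42.1, overlapped that of control, 40.6 to 50.7.

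Parp9 and Parp14, ADP-ribosyltransferase family proteins that modulate interferon signalling and lie near each other on chromosome 16, were both lower in every MttpLKO pool than in any control. Parp9 read 33.9, 33.5 and 31.4 CPM in control, 30.8, 26.4 and 22.4 in MttpLKO and 32.8, 27.7 and 32.8 in DKO. Parp14 read 29.5, 31.2 and 28.1 CPM in control, 24.4, 22.5 and 26.6 in MttpLKO and 28.2, 21.4 and 25.4 in DKO. Their log2 fold changes in MttpLKO were -0.31 ± 0.128 (SE; edgeR adjusted p = 0.648) and -0.27 ± 0.122 (adjusted p = 0.701). Trim25 was level, at 90.8 to 101 CPM in control and 89.9 to 108 in MttpLKO.

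The second comparison asked what the genes did when Fabp1 was lost as well, set against the same controls. None of the 45 genes passed edgeR's test in DKO against control, where 0.332% of all genes tested did. At an unadjusted p under 0.05, 5 genes were lower and 0 higher (background 5.33% and 5.91%); limma-voom called none. DESeq2 called 1, Gbp3, where it called 1.74% of all genes. Of the 45 estimates, 36 were below 0 (background 50.4%), with a median of -0.19 against 0.00 over all genes. Irf7, Ifit1, Ifit3, Mx2, Gbp3 and Trim30a were lower without overlap (background 9.18%), and Zbp1 was higher without overlap (background 8.95%). Both comparisons use the same control libraries, so their values are not independent.

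Here too single pools set the size. The median was -0.087 without DKO replicate 3 and -0.299 without DKO replicate 1. The count of genes lower without overlap was 6 with all libraries. It was 12, 8 and 11 without control replicates 1, 2 and 3, where 15.4%, 12.2% and 12.4% of all genes did the same. It was 19, 12 and 8 without DKO replicates 1, 2 and 3, where 13.8%, 18.9% and 15.1% of all genes did. The library median of centred log2 CPM was 0.042, -0.059 and -0.203 in DKO replicates 1 to 3. These lay below the 0.07 to 0.161 of control, a difference that was not tested.

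Gbp3 was 1.72-fold lower in DKO than in control, a log2 fold change of -0.78 ± 0.204 (SE; edgeR adjusted p = 0.19). With DESeq2 the value was -0.778 ± 0.232 (adjusted p = 0.0453), and over all alternatives tried the adjusted p ran from 0.0453 to 0.52. Ifit3 was 1.61-fold lower, at -0.69 ± 0.209 (edgeR adjusted p = 0.251). Its levels in DKO, 6.35, 5.71 and 4.35 CPM, lay below every control, as given above.

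Mx2 read 8.2, 6.05 and 6.68 CPM in DKO, against 10.7, 9.71 and 8.5 in control, a log2 fold change of -0.47 ± 0.168 (SE; edgeR adjusted p = 0.341). Irf7 and Ifit1 stood at -0.40 ± 0.153 (adjusted p = 0.363) and -0.36 ± 0.16 (adjusted p = 0.432). Oas1a read 1.93, 1.15 and 1.08 CPM in DKO and 2.34, 1.73 and 2.21 in control, at -0.59 ± 0.279 (edgeR adjusted p = 0.463), with the ranges overlapping. Trim30a, a ubiquitin ligase that dampens Toll-like receptor signalling, read 4, 4.85 and 4.67 CPM in control, 2.79, 3.42 and 5.12 in MttpLKO and 3.42, 3.15 and 3.27 in DKO, at -0.46 ± 0.229 for DKO against control (edgeR adjusted p = 0.494).

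By role, the 16 effectors again all had estimates below 0 in DKO against control, with a median of -0.28. Their summed levels, 409 to 500 CPM, overlapped control at 491 to 508. The class I genes did not lean: 3 of 7 were below 0 and the median was 0.04. Their summed level of 4154 to 4769 CPM lay below the 4826 to 4935 CPM of control, but most of this sum was B2m and H2-K1. H2-K1 stood at -0.14 ± 0.113 (SE; edgeR adjusted p = 0.692), and Parp14 at -0.24 ± 0.122 (adjusted p = 0.494). Zbp1, the sensor of Z-form nucleic acid that can trigger necroptosis, read 7.44, 7.49 and 8.42 CPM in DKO, 6.63, 6.58 and 5.93 in control and 7.18, 3.75 and 7.86 in MttpLKO. Ifih1 read 19, 14.1 and 16.5 CPM in DKO, a log2 fold change of -0.20 ± 0.142 against control (edgeR adjusted p = 0.646).

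**Figure D3:**
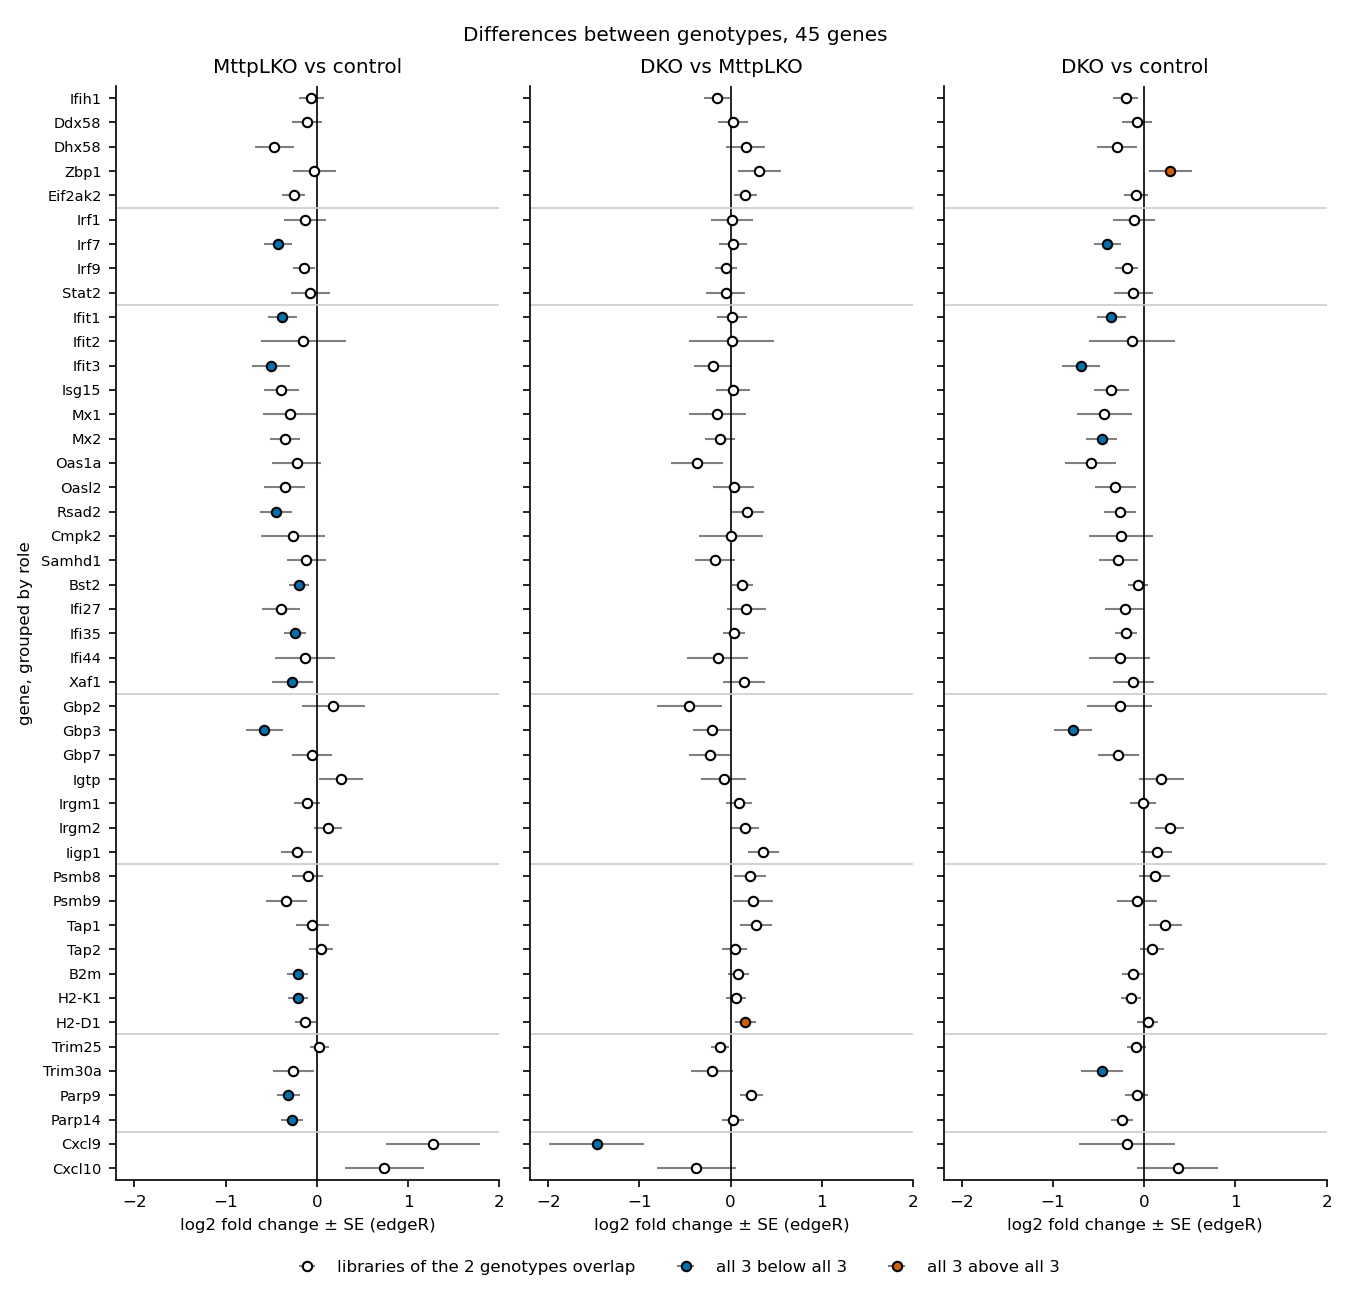
Log2 fold change ± SE from edgeR (horizontal axis) for 45 genes grouped by role (vertical axis) in 3 comparisons; filled points mark genes whose 3 libraries in one genotype lie all below (blue) or all above (orange) those of the other. No gene passed the test; 38 points lie below 0 in MttpLKO against control, 17 in DKO against MttpLKO and 36 in DKO against control.

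The third comparison set DKO against MttpLKO, which differ by the germline loss of Fabp1. None of the 45 genes passed edgeR's test in DKO against MttpLKO, where 0.400% of all genes did, and DESeq2 and limma-voom also called none. A single gene, Cxcl9, had an unadjusted p under 0.05 on the lower side and 0 on the higher (background 4.45% and 4.65%). The estimates were split, 17 below 0 and 28 above (background 53.1% and 46.9%), with a median of 0.03 against -0.02 over all genes. That median ran from -0.042 to 0.109 when each library was left out in turn, so its sign rested on single pools. H2-D1 was the only gene higher without overlap (background 5.67%) and Cxcl9 the only one lower (background 5.83%).

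All 7 class I genes had estimates above 0 in DKO against MttpLKO, with a median of 0.16 and none past the test. Without DKO replicate 2, 5 of 7 were above 0, with a median of 0.08. H2-D1 read 605, 505 and 501 CPM in control, 471, 484 and 523 in MttpLKO and 524, 592 and 537 in DKO, a log2 fold change of 0.16 ± 0.116 over MttpLKO (SE; edgeR adjusted p = 0.725). Tap1 read 26.5, 16.5 and 28.3 CPM in MttpLKO and 27, 29.9 and 29.6 in DKO, at 0.28 ± 0.18 (edgeR adjusted p = 0.691), and 0.088 without MttpLKO replicate 2. DKO replicate 2 was the highest of 9 for Psmb8 (46.7 CPM), Psmb9 (27.3), Tap1 (29.9) and Tap2 (31.9).

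Outside class I the values crossed. Iigp1 read 132, 146 and 197 CPM in DKO, at 0.36 ± 0.17 over MttpLKO (SE; edgeR adjusted p = 0.565), and 0.178 without DKO replicate 3. Parp9 stood at 0.23 ± 0.128 (adjusted p = 0.641) and Zbp1 at 0.31 ± 0.235 (adjusted p = 0.734). Parp9 was at 0.124 without MttpLKO replicate 3, and Zbp1 at 0.064 without MttpLKO replicate 2. Oas1a stood at -0.37 ± 0.281 (adjusted p = 0.74) and Irf9 at -0.05 ± 0.123 (adjusted p = 0.935). Gbp2, at 2.57, 2.47 and 1.84 CPM in DKO, stood at -0.45 ± 0.352 (adjusted p = 0.744), and 0.06 without MttpLKO replicate 3, where it read 5 CPM.

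**Figure D4:**
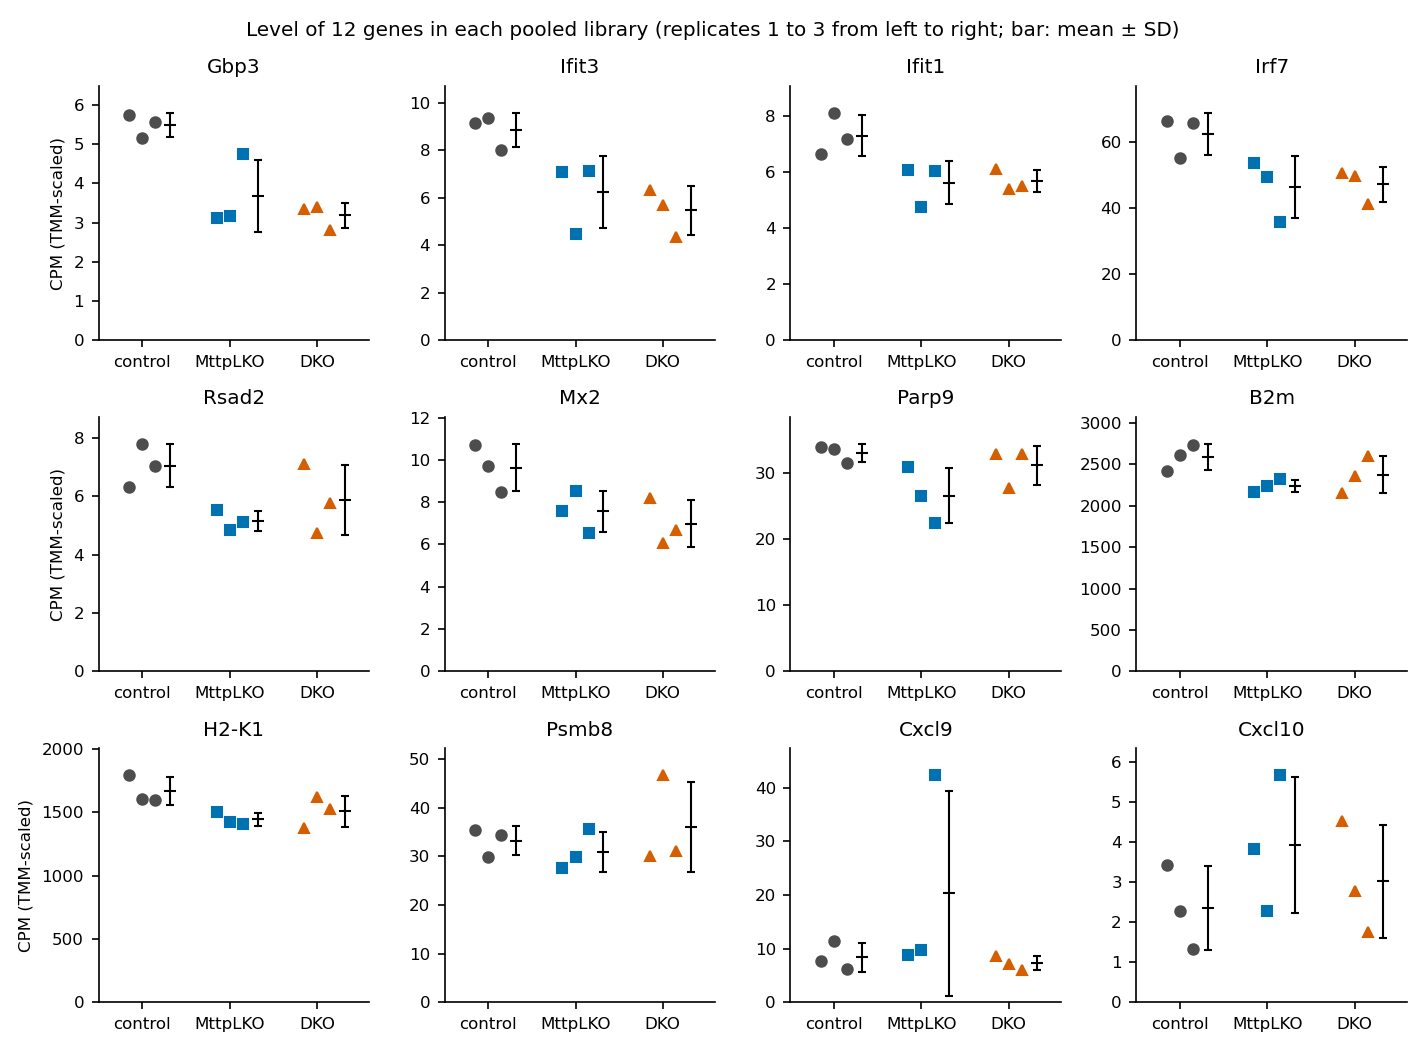
CPM on TMM-scaled library sizes (vertical axes, each from 0) of 12 genes in the 3 genotypes; points are pools, replicates 1 to 3 from left to right, and bars the mean ± SD. Gbp3, Ifit3, Ifit1 and Irf7 lie below all controls in all 6 libraries without Mttp, while Cxcl9 is set by 1 MttpLKO pool at 42.3 CPM.

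The chemokines were the one role with both estimates above 0 in MttpLKO against control, and the size of the larger came from 1 pool. Cxcl9 and Cxcl10 are ligands of Cxcr3 that draw T cells and NK cells, and Cxcl9 is chiefly a target of interferon gamma. Cxcl9 (chr5:92321331-92328079) read 7.68, 11.4 and 6.15 CPM in control, 8.9, 9.74 and 42.3 in MttpLKO and 8.72, 7.24 and 6.05 in DKO. The third MttpLKO pool stood far above the other 8 libraries, which overlapped between control and MttpLKO. The log2 fold change of MttpLKO against control was 1.27 ± 0.516 (SE; edgeR adjusted p = 0.647), and without that pool 0.145 ± 0.25 (adjusted p = 0.951). For DKO against MttpLKO the values were -1.47 ± 0.522 (adjusted p = 0.402) and, without the pool, -0.342 ± 0.251 (adjusted p = 0.711). Cxcl10 read 3.44, 2.29 and 1.34 CPM in control, 3.82, 2.28 and 5.67 in MttpLKO and 4.54, 2.77 and 1.75 in DKO, with all groups overlapping. Its log2 fold change of MttpLKO against control was 0.74 ± 0.435 (SE; edgeR adjusted p = 0.849), and 0.37 ± 0.444 without the third MttpLKO pool (adjusted p = 0.923). It had a log2 fold change of 0.37 ± 0.441 for DKO against control (SE; edgeR adjusted p = 0.819).

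The same pool was also the highest of the 9 for class II antigen presentation and for markers of several cell types. The summed level of 10 class II genes, which present peptides to CD4+ T cells, was 496 CPM there, against 109 and 143 in the other MttpLKO pools, 130 to 195 in control and 90.5 to 230 in DKO. Cd74, the class II chaperone, read 234 CPM in it and 41.5 to 107 elsewhere. All 10 class II genes had estimates above 0 in MttpLKO against control (median 0.76) and below 0 in DKO against MttpLKO (median -0.64), with none past the test. These directions came from the third MttpLKO pool: without it, all 9 class II genes tested were below 0 in MttpLKO against control (median -0.31), and 8 of 9 were above 0 in DKO against MttpLKO (median 0.43).

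Markers of 7 B and plasma cell genes summed to 338 CPM in that pool and to 12.7 to 22.9 in the other 8, with Ighm, the IgM heavy chain, at 281 CPM. Markers of T cells (7 genes) summed to 15.2 CPM there and to 1.88 to 5.79 elsewhere. The pool was highest, too, for markers of recruited macrophages and monocytes (71.2 CPM against 30.5 to 50.4), conventional dendritic cells (23.4 against 11.4 to 18.4), stellate cells and fibroblasts (368 against 173 to 248) and cholangiocytes (139 against 62.8 to 102). Single genes weighed heavily in some sums: Lyz2 gave 41.8 of the 71.2 CPM, and Spp1 109 of the 139 CPM. Some markers were not highest in this pool. Among them, Cd9 read 17.6 CPM in it and 22.8 in DKO replicate 3, and Zbtb46 read 9.41 and, in control replicate 3, 10.5. No marker of these lists was at 0 in all libraries. Kupffer cell markers (6 genes) summed to 23.3 and 27.3 CPM in the first and second MttpLKO pools and 70.2 in the third, to 67.5 to 93.6 in control and to 45.7 to 107 in DKO. Plasmacytoid dendritic cell markers (5 genes) summed to 29.0 to 38.5 CPM, highest in the third MttpLKO pool, and Tcf4 alone gave 27.2 to 35.3. Spib, in the same list, read 2.71 CPM in the third MttpLKO pool and 0.0448 to 0.683 elsewhere. NK cell markers (6 genes) stayed at or below 1.56 CPM, the value of the third MttpLKO pool, with 1.43 in DKO replicate 3. Hepatocyte markers (6 genes) were highest in the third MttpLKO pool too, at 98153 CPM against 56028 to 92647 elsewhere. In bulk tissue, a different number of cells of a type and a different amount of RNA per cell cannot be told apart. The part of these cell types in the chemokine values was not tested.

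**Figure D5:**
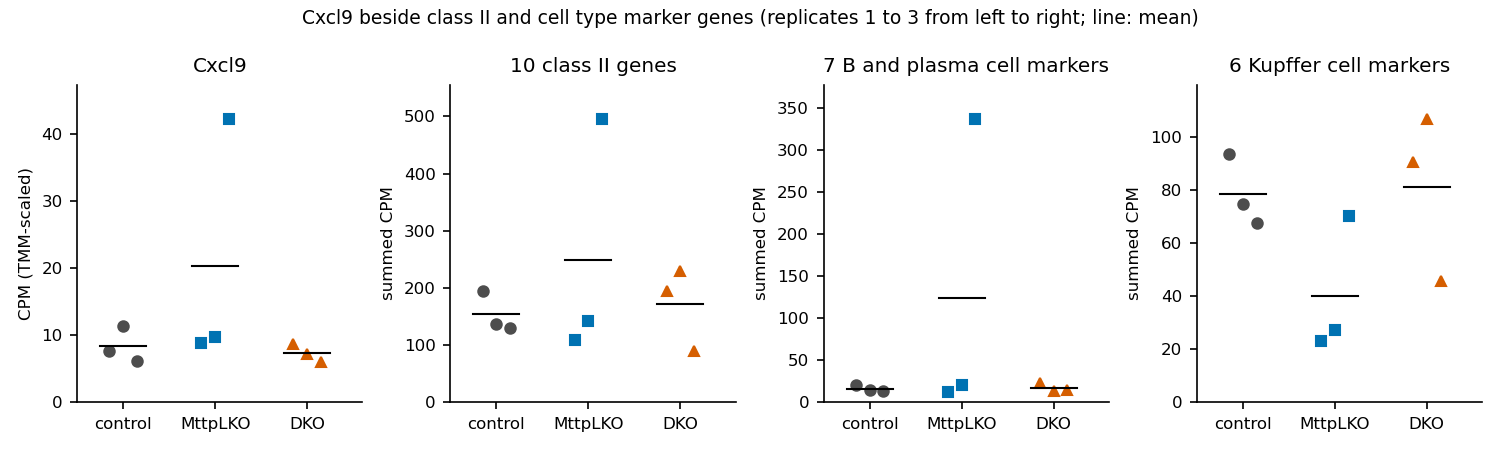
Cxcl9 (CPM on TMM-scaled library sizes) and the summed CPM of 10 class II genes, 7 B and plasma cell markers and 6 Kupffer cell markers (vertical axes, each from 0) by genotype; points are pools, replicates 1 to 3 from left to right, and lines the mean. The third MttpLKO pool is highest for Cxcl9 (42.3), class II (496) and B and plasma cell markers (338), but not for Kupffer cell markers (70.2).

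Marker lists of other cells also leaned by genotype beside the members. Of the Kupffer cell markers, in MttpLKO against control 5 of 6 were below 0 (median -0.93), and in DKO against MttpLKO all 6 were above 0 (median 1.08), with none past the test. Without MttpLKO replicate 3, which leaves 2 MttpLKO pools, all 6 were below 0 (median -1.50) and then above 0 (median 1.79). In each, 1 passed the test, where 40 and 73 of the 14847 genes tested did. All 3 neutrophil markers tested were below 0 in MttpLKO against control (median -1.72) and above 0 in DKO against MttpLKO (median 1.18), with none past the test. The 5 neutrophil markers listed summed to 8.81, 3.08 and 1.45 CPM in control and 0.84, 1.69 and 2.0 in MttpLKO, so these overlapped. The sum was 3.13 to 4.12 CPM in DKO. These levels are low, and control replicate 1 stood far above the other libraries. All 6 stellate cell and fibroblast markers were above 0 in MttpLKO against control (median 0.59, and 0.17 without replicate 3), and 4 of 5 sinusoidal endothelial markers were below 0 (median -0.12). All 5 cholangiocyte markers were above 0 in MttpLKO (median 0.40) and in DKO (median 0.08), each against control, with none past the test. They summed to 83.3 to 139 CPM in MttpLKO and 75.5 to 102 in DKO, against 62.8 to 70.4 in control. Spp1 gave most of these sums. The part of these cell types in the effector values was not tested.

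Upstream of the members, the 8 interferon genes that were looked up were at or near 0. Ifnb1, Ifna1, Ifna2, Ifna4, Ifna5, Ifnl2 and Ifnl3 had no count in any of the 9 libraries, where a count of 0 allows up to 0.107 to 0.129 CPM (3 counts, counting error only). Ifng had 10 counts in all: 3 in control, 7 in MttpLKO, of which 6 in replicate 3, the pool with the highest Cxcl9, and 0 in DKO. No difference between genotypes in these ligands was detectable at this depth, and other interferon genes were not examined.

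The receptors and signalling proteins were tested and none was called. Of 6 receptor genes, 3 had estimates above 0 in MttpLKO against control, and all 6 in DKO against control (median 0.20). Of 9 JAK-STAT and feedback genes, 6 were below 0 in MttpLKO. Irf2, a competitor of Irf1, stood at a log2 fold change of -0.36 ± 0.109 in MttpLKO against control (SE; edgeR adjusted p = 0.385). Of 11 sensing adaptors and kinases, 4 were below 0 in MttpLKO and 4 in DKO, each against control. Adar, the interferon-inducible editor of double-stranded RNA, stood at -0.37 ± 0.098 in DKO against control (edgeR adjusted p = 0.20).

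A further 38 interferon-induced genes outside the 45 were tested and none was called in any comparison. In MttpLKO against control 30 were below 0 with a median of -0.16 (35 and -0.33 without replicate 3 of MttpLKO, 24 and -0.09 without its replicate 2), and in DKO against control 29 were below 0 with a median of -0.19. Dtx3l, the partner of Parp9, stood at -0.37 ± 0.119 in MttpLKO against control (SE; edgeR adjusted p = 0.418), Rtp4 at -0.49 ± 0.163 (adjusted p = 0.477) and Ifitm3, which blocks viral entry, at -0.39 ± 0.133 (adjusted p = 0.496). In DKO against MttpLKO 17 were above 0 and 21 below, and 27 were above when replicate 3 of MttpLKO was left out. Lgals3bp was the one with the smallest p there, at 0.44 ± 0.116 (edgeR adjusted p = 0.222).

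Of 17 further class I genes, none was called in any comparison. The non-classical heavy chains H2-Q6 and H2-Q7 stood at -0.59 ± 0.149 (SE; edgeR adjusted p = 0.174) and -0.49 ± 0.136 (adjusted p = 0.214) in DKO against control, and H2-Q7 at -0.59 ± 0.136 (adjusted p = 0.153) in MttpLKO against control. Their sequences are close to those of other class I genes, and their counts are uncertain. Pdia3, an oxidoreductase of the endoplasmic reticulum that helps load class I molecules and folds many other proteins, stood at 0.61 ± 0.14 in DKO against control (edgeR adjusted p = 0.128), and Calr, the chaperone calreticulin, at 0.56 ± 0.153 in DKO against MttpLKO (edgeR adjusted p = 0.246).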

How the data were processed

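The authors deposited, for each of 9 libraries, whole-number read counts per gene together with CPM and RPKM values, per the file headers. The deposited CPM and RPKM were checked against the counts and gene lengths and differed by at most 5.1e-11 and 4.7e-11. RPKM was used only for levels between genes. The submitters' processing notes list featureCounts 1.4.5, Subread and STAR 2.0.4b without saying what each did. The sources used here do not give the build, annotation, strand setting or treatment of reads that match several genes. Coordinates are printed as deposited; all 45 genes lie on the same chromosome and strand in GENCODE M21 (GRCm38), 33 with the same start and end. Of the identifiers, 97.3% had a symbol.

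Counts were filtered with filterByExpr in edgeR 4.0.16 (R 4.3.3; minimum count 10; 14741 genes left), scaled by TMM and tested with the quasi-likelihood F test in 1 fit of 3 genotype means, with Benjamini-Hochberg adjustment over all genes and a threshold of 0.05. The biological coefficient of variation was 18.3% (dispersion 0.0335). The SE is the absolute log2 fold change over the square root of F. Alternatives were RLE and upper quartile scaling, no filter, a mean CPM of at least 1, DESeq2 1.42.0, limma-voom (limma 3.58.1), only the 6 libraries compared, the replicate number as a block, and leaving out each library in turn. Replicates of a genotype differed by more than sampling noise (chi-square over its degrees of freedom 20.8 to 67.5). That they are separate pools rests on the labels. The scripts were tested on simulated data.

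The genes, the pathway and marker lists and the tests were chosen with earlier results of these data known. Genes are given with a test when called, otherwise the 8 with the smallest unadjusted p per comparison and the smallest of each role. Genes outside the 45 are given as counts per list with those of smallest p. Gene levels printed in sentences without a test are descriptions.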

Additional observations from a re-analysis of the deposited data

How the results depend on the processing

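Of 30 single-gene results given with a test, 26 kept their direction and their side of the threshold under each of the 17 alternatives. The exceptions were Gbp3 in DKO against control, which DESeq2 called at a log2 fold change of -0.778 (adjusted p = 0.0453; range over alternatives 0.0453 to 0.52), so that DESeq2 called 1 of the 45 genes there, and 3 whose sign turned. Gbp2 in DKO against MttpLKO was 0.06 without MttpLKO replicate 3 (leave-one-out range -0.695 to 0.06). Irf9 in DKO against MttpLKO was 0.019 without MttpLKO replicate 3 and 0.067 without DKO replicate 3 (range -0.171 to 0.067). Cxcl10 in DKO against control was -0.056 without DKO replicate 1 (range -0.056 to 0.757). The cause was not tested.

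Leaving out each library in turn, the number of the 45 genes called was 0 in all 3 comparisons. The median log2 fold change ran from -0.262 to -0.112 in MttpLKO against control, from -0.042 to 0.109 in DKO against MttpLKO and from -0.299 to -0.087 in DKO against control. Labels give each genotype replicates 1 to 3, but libraries with the same number did not deviate together (correlations of -0.244 to 0.072), so the numbers do not pair them. With the replicate block, 0 of the 45 genes were called in each comparison, the medians were -0.204, 0.024 and -0.192, and over all genes 35, 43 and 40 were called, against 51, 59 and 49 without it. Over all genes DESeq2 called 165, 214 and 256, and edgeR without a low-count filter 171, 180 and 201. Genes under 3 CPM such as Ifit2 and Cmpk2 rest on few counts, and their differences are the least certain.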
